A study of Mus musculus with 2 samples.

Results

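Short regions of the autosomes with tall H3K4me3 peaks were examined in a list of regions where bone marrow progenitor cells of Mll-PTD mice carried more H3K4me3 tags than those of wild-type mice. A region belonged to this set when it lay on chromosomes 1 to 19 of the mm9 build, was shorter than 1000 bases and had a score of at least 50. The score is the authors' deposited value, read here as the Mll-PTD tags of the tallest 500-base peak of a region, a meaning the file headers do not spell out. Of the 41561 listed regions, 1415 met the rule (3.40%), and they made up 4.55% of the 31089 listed autosomal regions below 1000 bases. The label holds within this list, where the median score over all regions was 33.0 and that of the set was 57.0.

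Both libraries came from bone marrow of C57BL/6 mice, labelled LSK (cells negative for lineage markers and positive for Sca1 and KIT, which include the stem and early progenitor cells of blood). The cells were selected on magnetic beads for CD117, which is KIT, and then for Sca1, so cells of other types may be present, and a ChIP region list does not allow a check against marker transcripts. The WT group was 1 wild-type library, and the Mll-PTD group was 1 library from heterozygous knock-in mice. The age and number of mice are not given in the sources used here. The allele is a partial tandem duplication within Mll, carried on 1 of its 2 copies; as a knock-in of the gene itself it is not driven by a transgene promoter. Depth was 58083118 tags for Mll-PTD, per the file headers, and 43579172 for WT, as computed from the scaled columns. There was no replicate, so no test between genotypes was possible, and every interval below is an exact 95% interval that covers counting error only.

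H3K4me3, the trimethylated form of lysine 4 on histone H3, is laid down by the SET1 and MLL families of methyltransferase complexes and sits around the starts of active and poised genes, most of all over CpG islands. At strongly transcribed genes it can spread over kilobases, and it forms narrower peaks at weaker promoters and at some enhancers. Mll, now named Kmt2a, encodes one of these methyltransferases, and the partial tandem duplication is a known lesion of acute myeloid leukaemia. Genes transcribed by RNA polymerase III, such as those of transfer RNAs and other small RNAs, are also known to carry the mark nearby.

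The set was chosen on Mll-PTD tags from a list that itself required 4 times more Mll-PTD than WT tags, so the level in Mll-PTD and the ratio describe the choice and support nothing. Each member held 40 to 2872 Mll-PTD tags (median 74), or 30 to 2155 after scaling to the WT library size (median 55.5, quartiles 46.5 and 71.3). WT tags ran from 0 to 144 with a median of 9 (quartiles 5 and 12). Scaled Mll-PTD tags over WT tags gave a median ratio of 5.79 in the 1247 members that had a WT tag (quartiles 4.67 and 7.93). The summed tags of all members gave a ratio of 6.68 (6.57 to 6.80). Other short autosomal regions, those scoring under 50, had a median ratio of 6.60 in the 24858 with a WT tag and a summed ratio of 8.21 (8.16 to 8.26). A fold of at least 8 in the authors' deposited table was found for 479 members (33.9%), where 47.0% of all listed regions reached it. Many members lay close to the limit of the list, with 423 (29.9%) between 4 and 5, 513 between 5 and 8, 242 between 8 and 20 and 69 at 20 or above. The remaining 168 had no WT tag.

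**Figure D1:**
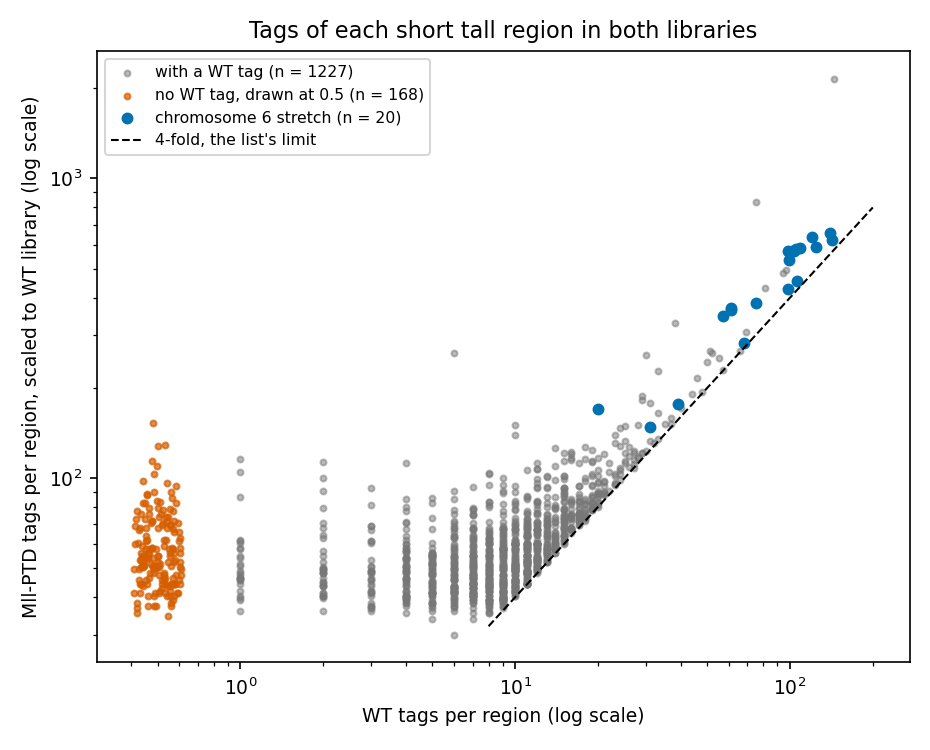
WT tags (x axis) against scaled Mll-PTD tags (y axis) of the 1415 members, both on log scales, with 1 point per region. Of the 1247 points with a WT tag, 423 lie between the dashed 4-fold limit and 5-fold, the 20 members of a stretch on chromosome 6 lie at its upper end, and the 168 members with no WT tag, drawn around 0.5 with sideways scatter, stand on the left.

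Tall short regions also carried more WT signal than their lower counterparts. The 4-fold limit allows more WT tags where Mll-PTD tags are higher, so the choice by score favours this difference by construction. Per kilobase, WT tags stood at a median of 14 in the members (quartiles 7.96 and 20), 6 in other short autosomal regions and 11 in the 531 autosomal regions of at least 1000 bases that also scored 50 or more. Scaled Mll-PTD tags stood at 87.7, 49.6 and 84.3 per kb in the same order. An even spread of all WT tags across the 2000000000 bases the caller assumed would give 21.8 per kb. That level was exceeded in WT by 315 members (22.3%, 20.1% to 24.5%), by 95 of the 29674 other short autosomal regions (0.320%) and by 544 regions of the whole list. A region can pass it only where Mll-PTD stands above 4 times the same level, so the score limit favours it by construction.

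Values just inside and just outside the score limit were close. The 259 members scoring 50 or 51 had a median of 7 WT tags and a median ratio of 6.75, with regions without a WT tag set at their bound against 3 tags. The 344 short autosomal regions scoring 48 or 49, just outside, had 6.50 WT tags and a ratio of 6.76. On the side of length, 29 members of 950 to 999 bases had a median ratio of 6.64, and the 44 tall regions of 1000 to 1049 bases had one of 7.35.

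Most members were only moderately tall. Scores of 50 to 59 were held by 801 members, 60 to 69 by 289, 70 to 79 by 115, 80 to 99 by 118, 100 to 149 by 53, 150 to 199 by 11 and 200 or more by 28. With the score the WT level went up too, from a median of 7 tags in the lowest class to 19 at 100 to 149 and 84.5 at 200 or more. Scaled Mll-PTD tags had medians of 48.0, 108 and 469 in these classes. The 4-fold limit lets a region hold more WT tags as Mll-PTD tags rise, so the choice of regions favoured this order. The median ratio of members with a WT tag was 6 at 50 to 59 (quartiles 4.79 and 8.48) and 5.17 at 200 or more (4.51 and 5.67). All 28 members of the highest class exceeded the even WT level of 21.8 tags per kb, and none of them lacked WT tags (0%, upper limit 12.3%). Of these 28, 15 lay in a single stretch of 125 kb on chromosome 6, and 4 lay within 4.95 kb on chromosome 8. They are therefore not independent, the upper limit is too low, and the medians of this class describe that stretch above all. No WT tag was found in 12.6% of members scoring 50 to 59 (10.4% to 15.1%), in 16.5% at 70 to 79 (10.3% to 24.6%) and in 5.66% at 100 to 149 (1.18% to 15.7%).

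**Figure D2:**
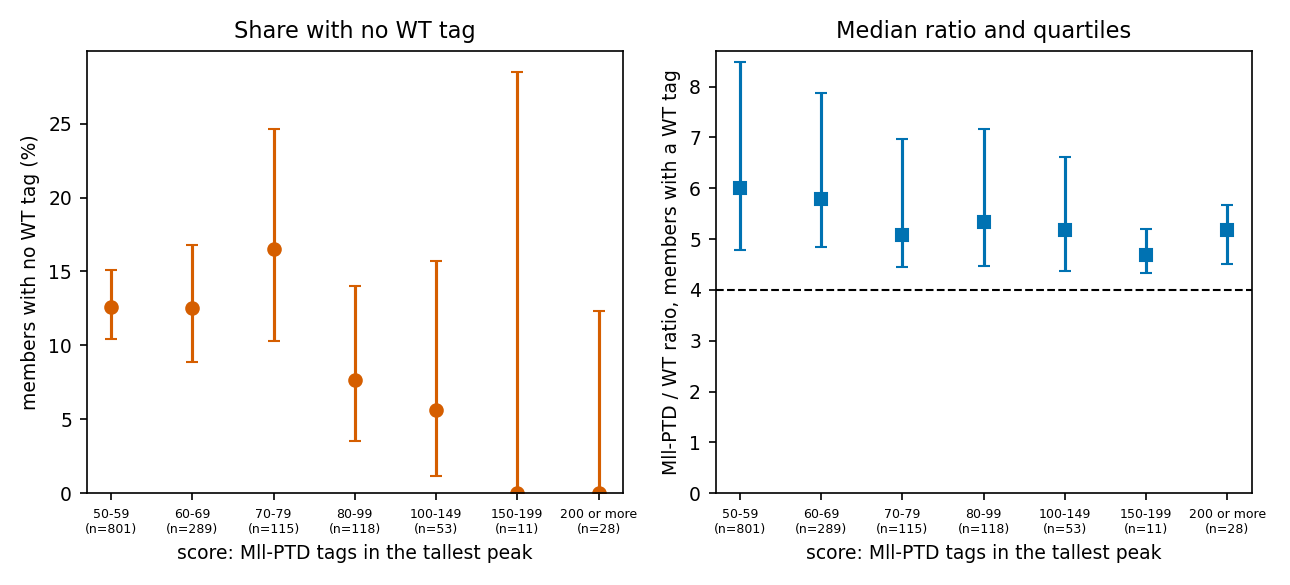
Members by score class (x axis), with the share that had no WT tag and its exact 95% interval on the left, and the median ratio of Mll-PTD to WT tags in members with a WT tag with its quartiles on the right. The share was 12.6% in the lowest class and 0% in both classes from 150 up, and the median ratio ran from 6 to 5.17 between the lowest and the highest class, above the dashed 4-fold limit.

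The tallest member lay on chromosome 12 from 98299562 to 98300187, 625 bases with a score of 820. It held 2872 Mll-PTD tags, 2155 after scaling, against 144 in WT, and its ratio of 15 (12.7 to 17.8) was far above the median of the set. Its Mll-PTD tags came to 4.60 per base, more than the 2 tags per base that the caller considers, and its WT tags were the most of any member, at 230 per kb. The nearest listed region was 48454 bases away, so it stood alone in the list. A region on chromosome 6 from 9839746 to 9840371 was also dense, with 1116 Mll-PTD tags, 837.3 after scaling, against 75 in WT and a ratio of 11.2 (8.83 to 14.3). Its nearest listed region was 23398 bases away. Its clonal fold, the caller's measure of tags piled on the same positions, was 1.82, close to the maximum of 2. These 2 regions had ratios of 11 or more, whereas the other 8 of the 10 highest scores had ratios from 4.01 to 5.83.

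On chromosome 8, the region from 40240629 to 40241506 scored 447 and held 492.9 scaled Mll-PTD tags against 97 in WT (ratio 5.08, 4.10 to 6.36). The region from 56203876 to 56204376 scored 318 with 264.9 against 66 tags. Its ratio of 4.01 (3.08 to 5.30) lay at the limit of the list, so a slightly higher WT count would have kept this very tall peak out. Of the 10 highest scores, the other 6 lay in a single stretch of chromosome 6.

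That stretch, from 47602155 to 47727596, held 20 members in 125 kb, among them 15 of the 28 members scoring 200 or more and 19 of the 39 scoring 150 or more. Scaled Mll-PTD tags ran from 147.8 to 658.8 per member (median 494.5) and WT tags from 20 to 142 (median 98.5). The ratios ran from 4.14 to 8.48, and the summed tags gave 5.15 (4.89 to 5.41). These 20 regions took 8.97% of the Mll-PTD tags and 11.7% of the WT tags of the whole set. Their clonal folds (the caller's measure of tags piled on the same positions), 0.65 to 0.82, lay below the median of the set, 0.830. Over all listed regions the median was 0.730 (quartiles 0.670 and 0.820), so they were not unusual for the list.

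The first 9 members of the stretch came at nearly regular steps. These, from 47602155 to 47637304, started 4140 to 4510 bases apart with a median of 4311. The region from 47606420 to 47607311 held 636.2 scaled Mll-PTD tags against 120 in WT. The next, from 47610730 to 47611517, held 582.2 against 105, and that from 47615089 to 47615857 held 574.0 against 103. Those from 47623561 (572.5 against 102), 47628071 (571.7 against 98) and 47632211 (591.2 against 124) had similar tags in both libraries. The other 3 of the 9 were lower in Mll-PTD. The first, from 47602155, held 363.9 against 61, and the fifth, from 47619401, held 456.2 against 106, with the lowest ratio of the 9 (4.30, 3.50 to 5.34). The ninth, from 47636679 to 47637304, held 169.6 against 20 tags and had the highest ratio of the 20 members, 8.48 (5.36 to 14.1).

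No region was listed over the following 49.9 kb, up to the second tallest member, from 47687160 to 47687910. It scored 605 and held 621.2 scaled Mll-PTD tags against 142 in WT (ratio 4.37, 3.66 to 5.27). The 11 members from there to 47727596 were less even, with steps of 1705 to 9924 bases, and 2 further listed regions among them were too long for the set. One of these 2 also scored only 42, below the score limit, and had the highest ratio of all 22 (8.90, 4.13 to 22.8, from 7 WT tags). Over the whole stretch 13 of the 21 steps between listed regions fell within 3900 to 4600 bases, a window set after the values were seen. Whether these regions share a repeated sequence was not tested. How reads with several matches were treated is not given in the sources used here, so the counts of single members in this stretch are uncertain.

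As background, chromosome 6 of the mouse is known for a tandem array of a small RNA gene, Rn4.5s, which the RefSeq table of GRCm38.p6 lists between the coding genes Ezh2 and Pdia4. Positions were not carried between builds, so whether these regions lie over copies of that gene was not tested.

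**Figure D3:**
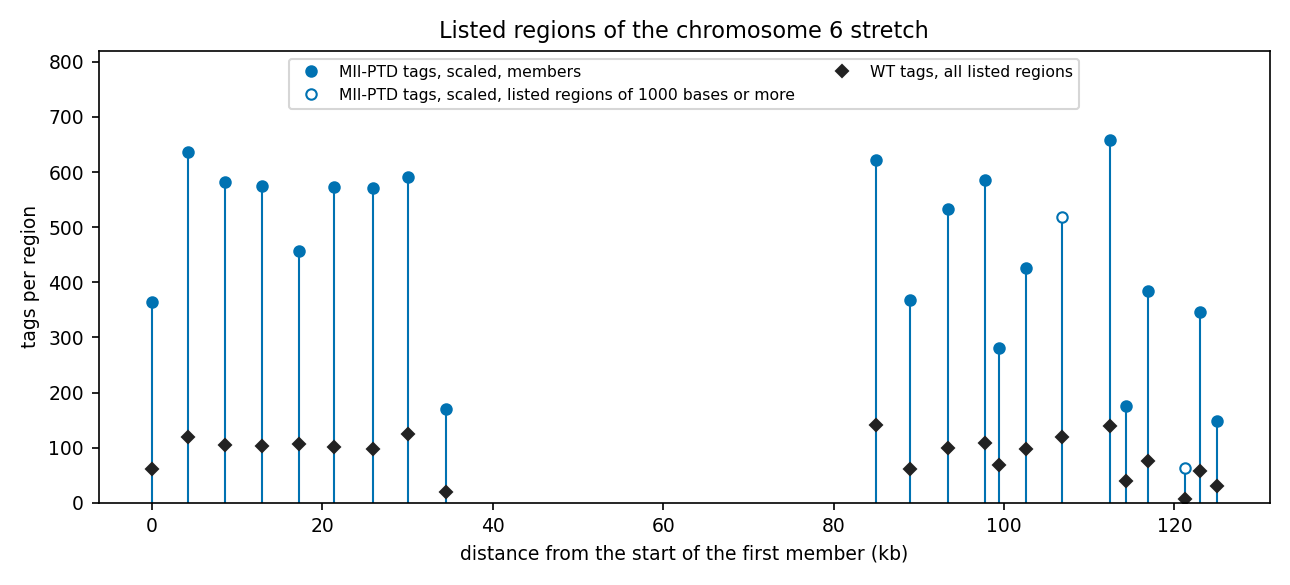
Tags per listed region (y axis) along the chromosome 6 stretch, by distance in kb from the start of the first member (x axis), for scaled Mll-PTD tags (circles) and WT tags (diamonds). The first 9 members stand about 4.3 kb apart, 49.9 kb follow without a listed region, and WT tags are lower than Mll-PTD tags at each of the 22 regions shown.

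Shorter rows of members occurred elsewhere. With members joined when at most 10 kb apart, 12 stretches of 3 or more held 56 members, and both parts of the chromosome 6 stretch came first. On chromosome 8 from 57978661 to 57999401, 6 members scored 51 to 171 with 7 to 35 WT tags each and a summed ratio of 4.61 (3.74 to 5.73). Also on chromosome 8, 4 members of 500 bases each lay between 56202842 and 56207794 in 2 pairs. They scored 249 to 318, held 194.3 to 264.9 scaled Mll-PTD tags against 48 to 66 in WT, and had ratios of 4.01 to 4.86. On chromosome 1 from 153029611 to 153058845, 5 members of 500 to 628 bases stood 5698 to 9085 bases apart, with 42.0 to 63.8 scaled Mll-PTD tags against 8 to 15 in WT. A row on chromosome 8 from 74326103 to 74344684 had 3 members, 9 WT tags in all and a summed ratio of 16.0, with an interval (8.26 to 35.5) that overlaps those of some other rows.

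At the scale of 1 Mb, members lay in 871 bins, 578 of which held only 1, while 109 bins with 3 or more held 469 members (33.1%). Only 4 bins reached 10 members. After the chromosome 6 stretch came chromosome 4 from 145062054 to 145954713 with 18 members and from 146124061 to 146831969 with 16, and chromosome 8 from 19683862 to 19942589 with 13. In the first of the chromosome 4 bins the members had 2 to 24 WT tags and a summed ratio of 6.70 (5.70 to 7.91), and in the second 4 to 23 WT tags and 6.19 (5.23 to 7.35). The chromosome 8 members scored 51 to 130 and had a summed ratio of 6.65 (5.58 to 7.98). No member without a WT tag was found in these 4 bins, which held 67 members. The share of tall regions varied between crowded bins. The bin of chromosome 14 from 43 Mb held 148 short regions, of which 6 were members (4.05%), and that of chromosome 8 from 19 Mb held 33, of which 13 were (39.4%).

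Chromosome 4 held the most members, 120 (8.48%, 7.08% to 10.1%), and chromosomes 1 and 2 came next with 111 and 105. That order rests on the limits: at a score of 75 or more chromosome 8 held the most (33 of 264) and chromosome 4 held 15, at 500 bases chromosome 5 did (49 of 519, against 38), and at a fold of at least 8 chromosome 2 did (42 of 479, against 35). Per short listed region, chromosomes 8 and 19 had the highest shares of members, 6.58% (5.37% to 7.98%) and 6.42% (4.74% to 8.48%). Chromosomes 13 and 14 had the lowest, 2.93% (2.15% to 3.89%) and 3.13% (2.44% to 3.95%), and their intervals do not reach those of chromosomes 8 and 19. These extremes were picked after the values were seen. Members also lie in clusters, such as 13 in the bin of chromosome 8 from 19 Mb and 6 in that from 57 Mb. The intervals are therefore too narrow, and a difference between chromosomes was not tested. Chromosome 14 held 7.09% of the short regions and 4.88% of the members.

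Members with no WT tag outnumbered those with 1, 2 and 3 WT tags together. No WT tag was found in 168 members (11.9%, 10.2% to 13.7%), where the share was 13.5% over all listed regions and 16.2% (15.8% to 16.7%) in other short autosomal regions. By comparison, 26 members had 1 WT tag, 33 had 2, 32 had 3, and the commonest count was 10, with 115 members. Members with no WT tag also outnumbered those with 1 among members of like Mll-PTD signal. Among the 537 members with 45 to 60 scaled Mll-PTD tags, 68 had no WT tag, 14 had 1, 14 had 2 and 11 had 3, and the commonest count above 0 was 11 tags, in 59. Among the 414 with 60 to 90 scaled tags, 50 had none and 4 had 1.

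In Mll-PTD the medians of these 168 members were close to those of the rest. Their median score was 58.0 (highest 119), against 57.0 (highest 820) in members with a WT tag, and their scaled Mll-PTD tags stood at 82.2 against 88.6 per kb. Against a floor of 3 WT tags their ratios were at least 11.5-fold to 51.0-fold higher in Mll-PTD. The member with the most tags among them, chosen after the values were seen, lay on chromosome 1 from 187142976 to 187143924. It held 204 Mll-PTD tags, 153.1 after scaling, and 0 in WT, at least 51.0-fold higher. On chromosome 19 from 58187752 to 58188385, 129.0 scaled tags stood against 0, at least 43.0-fold higher. On chromosome 14 from 119201229 to 119202134, 127.5 stood against 0, at least 42.5-fold higher. Next came chromosome 3 from 40448931 to 40449690, with 114.0 against 0 tags, at least 38.0-fold higher. The floor takes the Mll-PTD count as exact. With counting error in both libraries the lower 95% limits of these 4 ratios lie below the values given, at 41.1, 34.6, 34.2 and 30.5. Their scores of 116, 119, 105 and 92 place all 4 well above the limit of 50.

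With members lacking WT tags set at their bound, the 5 highest ratios belonged to members with a single WT tag, whose intervals are therefore wide. The floor divides scaled tags by 3 where WT had 0 tags and by 1 where it had 1, so the rule favours this order. The member on chromosome 1 from 187142976, with 153.1 scaled Mll-PTD tags against 0, was held at 51.0. Its lower limit of 41.1 lay above those of the 5, which ran from 10.7 to 20.4. Which members had the highest ratios is therefore not settled. On chromosome 8 from 109590842 to 109591823, 115.5 scaled Mll-PTD tags stood against 1 (ratio 116, 20.4 to 4593). On chromosome 1 from 21622725 to 21623353 the tags were 105.0 against 1 (ratio 105, 18.5 to 4178). The other 3 of the 5 highest lay on chromosome 12 from 116383626 (86.3) and chromosome 15 from 101203454 (62.3) and 96486272 (61.5). At the low end, 4 members stood exactly at a ratio of 4, such as chromosome 8 from 87225992 to 87226492 with 108.0 against 27 tags (2.64 to 6.28).

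Members with and without a WT tag differed in how near the next listed region lay, with intervals that do not overlap at 2, 10 or 50 kb. Members in the same row are neighbours of each other and not independent, so these intervals are too narrow. Over all listed regions, 52.3% had another within 10 kb. Such a neighbour was found for 32 of the 168 members with no WT tag (19%, 13.4% to 25.8%), against 653 of the 1247 with a WT tag (52.4%, 49.6% to 55.2%). Their nearest listed region was a median of 32.0 kb away, against 8.64 kb. Within 2 kb the shares were 4.76% (2.08% to 9.17%) and 27.8% (25.4% to 30.4%), and within 50 kb 69% (61.5% to 75.9%) and 84.1% (82.0% to 86.1%). Among other short autosomal regions the shares within 10 kb were 48.6% (47.2% to 50%) with no WT tag and 49.3% (48.6% to 49.9%) with one. Within 2 kb they were 18.7% (17.6% to 19.8%) and 25.2% (24.6% to 25.7%). Tall regions without WT tags were thus the most isolated of the 4 groups at each distance, and whether the gap itself differs between tall and low regions was not tested. With the score limit lowered to 40, the share within 10 kb of regions with no WT tag was 35.1%.

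The share with a neighbour did not move steadily with the WT count. Members with 1 to 3 WT tags had a listed neighbour within 10 kb in 53.8% of 91 cases (43.1% to 64.4%), those with 4 to 6 in 55.6%, those with 10 to 12 in 46.9% and those with 13 or more in 55%. The position of other listed regions was not used to choose the members, but the list holds only regions that passed the 4-fold limit, so what lies unlisted nearby is not known. The comparison was made after the data were seen. Clonal fold exceeded 1 in 19% of members with no WT tag (13.4% to 25.8%) and in 13.9% of those with one (12.0% to 15.9%), intervals that overlap. Among other short autosomal regions the shares were 8.41% with no WT tag (7.64% to 9.23%) and 2.80% with one (2.60% to 3.01%), intervals that do not overlap. With members above 1 left out, the share of those with no WT tag that had a neighbour was 21.3%.

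**Figure D4:**
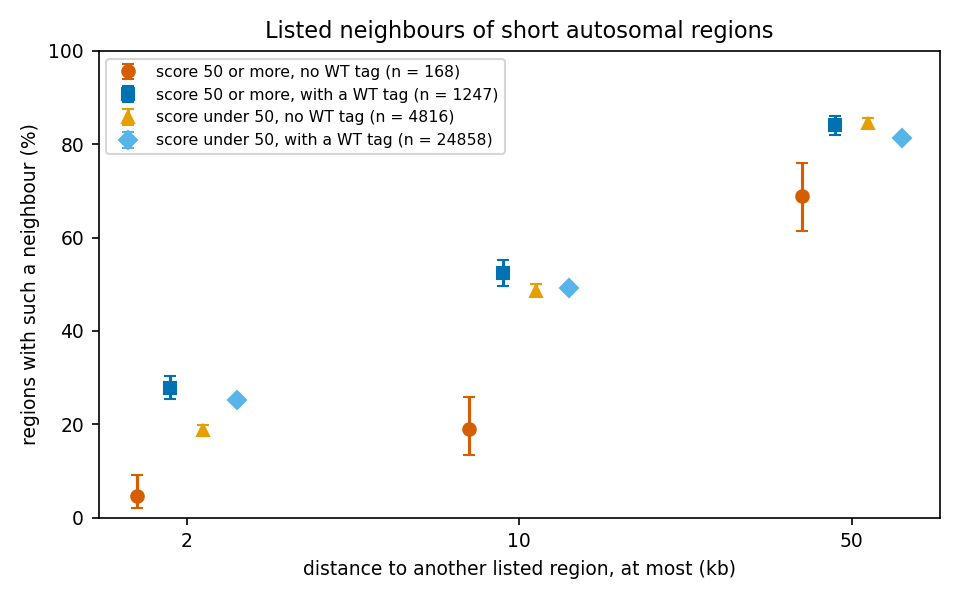
Share of short autosomal regions (y axis, %) with another listed region at most 2, 10 or 50 kb away (x axis), by score and by presence of a WT tag, with exact 95% intervals. Members with no WT tag lie lowest at each distance (4.76%, 19% and 69%).

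The clonal fold of Mll-PTD tags was higher in members than in other short regions. The score that chose the members comes from the same Mll-PTD tags, so the choice may favour this difference. The clonal fold is the authors' deposited score, taken from Mll-PTD tags, and putative peaks above 2 had been removed. Its median was 0.830 in the members (quartiles 0.770 and 0.920), 0.740 in other short autosomal regions and 0.780 in long tall ones. It exceeded 1 in 205 members (14.5%, 12.7% to 16.4%), where the share was 3.46% over all listed regions. In other short regions the share was 3.71% (3.50% to 3.93%) and in long tall regions 4.14% (2.61% to 6.21%). A clonal fold above 1.5 was found in 32 members, all with a WT tag, in 35 of the 29674 other short regions and in none of the 531 long tall regions.

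The 3 highest clonal folds lay close under the maximum. They were 1.97 on chromosome 10 from 103243597 to 103244097 (84.0 scaled Mll-PTD tags against 12 in WT), 1.94 on chromosome 16 from 80040636 to 80041136 (96.0 against 12) and 1.88 on chromosome 2 from 61918022 to 61918647 (118.5 against 26). Members above 1 were more isolated, with a listed neighbour within 10 kb in 25.9% (20% to 32.4%) against 52.2% (49.4% to 55.1%) of those at 1 or below. Where WT tags were present, their ratio had a median of 5.80, and that of the rest one of 5.79. Their summed ratio was 7.57 (7.27 to 7.90), against 6.51 (6.39 to 6.63). A fold of at least 8 in the authors' deposited table was found for 42.9% (36.1% to 50%) of them, against 32.3% (29.7% to 35.0%). The part of piled tags in the height of these peaks was not tested.

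**Figure D5:**
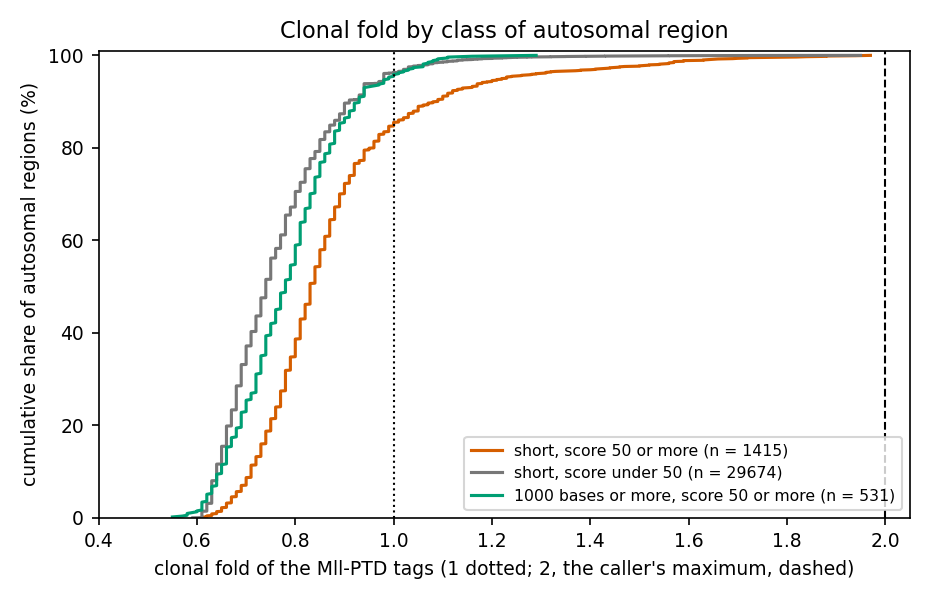
Cumulative share (y axis, %) of autosomal regions by clonal fold (x axis), for members, other short regions and regions of at least 1000 bases scoring 50 or more. The members' curve lies to the right, with 14.5% above 1 (dotted line) against 3.71% and 4.14%.

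Length divided the members further. The minimum of 500 bases, which is a single peak, was held by 519 members (36.7%), against 70.7% of other short autosomal regions. In these single peaks the WT level per kb was highest, at a median of 18 tags per kb. Their median ratio with a WT tag was 5.04 (quartiles 4.41 and 6.91), and no WT tag was found in 6.94% (4.91% to 9.47%). In the 465 members of 501 to 749 bases these values were 12.3 per kb, 6.15 and 14.6% (11.5% to 18.2%), and in the 431 of 750 to 999 bases 11.7 per kb, 6.17 and 14.8% (11.6% to 18.6%). WT tags per region had medians of 9, 8 and 10 in the 3 classes, so the single peaks were not highest by count. Scaled Mll-PTD tags per kb were also highest in them, at 99.0 against 81.6 and 81.6. With the score counted in 500 bases, shorter members needed more tags per kb to be chosen. Clonal folds above 1 were found in 20.2%, 14.6% and 7.42% of the 3 classes.

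The score and the tag count of a single peak did not always match. In the 519 members of 500 bases the score was a median of 91.9% of the Mll-PTD tags of the region (quartiles 79.4% and 98.1%), and in other regions of that length it was 100%. The tags exceeded 1.5 times the score in 53 of the 519 (10.2%) and in 0.930% of the others. The opposite was more frequent: the score was above the tags of the region in 77 of the 519 (14.8%) and in 44.3% of the others, so the score is not simply a count of the region's own tags. The 53 had a median clonal fold of 1.38, against 0.840 in the rest of the 519. The caller considers at most 2 tags per base, and the deposited tags per region are not held to that maximum.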

How the data were processed

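H3K4me3 ChIP-seq (antibody Abcam ab8580, per the labels) gave 1 WT and 1 Mll-PTD library, grouped by the genotype label. Bowtie 0.12.7, HOMER 4.7 and mm9 are named, per the submitters' processing notes. Per the file headers, the authors ran HOMER's peak finder in histone style on Mll-PTD tags with WT tags as input, with a false discovery rate of 0.001 (30 tags per peak), a fold of 4 and a Poisson p-value of 0.0001. Signal per region was deposited by the authors: Mll-PTD tags per 10000000, the same tags scaled to WT, and WT tags (0.5 where there was none, read here as 0). The deposited ratio (fold) and p-value are per region and are no test between genotypes, and the highest p-value among members was 9.85e-12. The findPeaks score (read here as the tallest peak) and the clonal score were deposited as well.

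Scaled tags were divided by a factor of about 0.750, taken from the sums of the columns and refined to best return whole tags. It returned whole Mll-PTD tags within 0.1 for 100% of regions, a share that the refinement favours. Ratios are scaled Mll-PTD over WT tags, and all intervals are exact (Clopper-Pearson). The rule for named regions took the 10 highest scores, the 5 highest and 5 lowest ratios (no WT tag set at 3), the 3 with most WT tags, the 3 highest clonal folds and 1-Mb bins with 3 or more members. Ties were broken by score, then position. Those bins are given as a summary. The members and comparisons were chosen with earlier results of these data known. Genes and sequences of mm9 were not used here. Intervals, zero counts and joining were checked on simulated data. Alternatives were other score, length and fold limits, joined members, a left-out chromosome, other pseudocounts and neighbour distances. Scripts ran in Python 3.11.15 with scipy 1.17.1, pandas 2.3.3, matplotlib 3.10.9 and numpy 2.4.6.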

Additional observations from a re-analysis of the deposited data

How the results depend on the processing

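Results without the chromosome 6 stretch or without clonal folds above 1, and all those on neighbours of members with no WT tag, were added after seeing the data. Of 62 alternative values 31 stayed within the counting interval of the reported value (for counts within 1.5 times, for medians within the binomial interval of the median), and 31 moved. The 1415 members became 5180 with a score limit of 40, 264 with 75, 519 at 500 bases only and 479 at a fold of 8. In the same order the median log2 ratio (pseudocount 1) of 2.50 became 2.59, 2.39, 2.28 and 3.80, and it was 2.13 with a pseudocount of 5 and 2.56 with 0.5. Over all listed regions it was 2.68, and its sign was fixed by the 4-fold limit. WT tags per kb, 14, became 10, 27.3, 18 and 4.62. The 11.9% without a WT tag became 7.20% at a score of 75, 6.94% at 500 bases and 35.1% at a fold of 8, which keeps every region with none. The share with a listed neighbour within 10 kb, 48.4%, was 57.2%, 45.3% and 40.9% in these, 25.1% within 2 kb, 82.3% within 50 kb and 52.2% at clonal folds up to 1. For members with no WT tag, 19% became 4.76% within 2 kb, 69% within 50 kb and 35.1% with a score limit of 40. The median clonal fold, 0.830, was 0.780 with a limit of 40, 0.850 at 500 bases, 0.860 at a fold of 8 and 0.810 at clonal folds up to 1. The share on chromosome 4, 8.48%, was 5.68% at a score of 75, where chromosome 8 held the most (12.5%); chromosomes 5 and 2 held the most at 500 bases (9.44%) and at a fold of 8 (8.77%). No paired analysis was possible because there was 1 library of each genotype. Depth limits single members, whose median WT count was 9.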

Other observations

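Outside the autosomes, 86 regions met the same limits of length and score. X held 36 of them, with a highest score of 93, a median ratio of 5.23 and no WT tag in 2. Unlocalised sequences of chromosomes 1 and 8 held 17 each, Y and its unlocalised sequence 6 each. No WT tag was found in 3 of the 86 (3.49%, 0.725% to 9.86%), and 61 (70.9%, 60.1% to 80.2%) had another listed region within 10 kb, where 48.4% of the autosomal members did (45.8% to 51.1%). Their median score, 57.5, and scaled Mll-PTD tags per kb, 85.4, were close to those of the autosomal members.

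Members with no WT tag made up 20.8% of those on chromosome 3 (12.2% to 32.0%) and 21.1% on chromosome 9 (11.4% to 33.9%), and 5.26% on chromosome 10 (1.45% to 12.9%); the intervals overlap. Neighbouring 1-Mb bins on chromosome 12, from 116067368 to 116831944 and from 117040689 to 117238908, held 6 members each with summed ratios of 12.9 (9.06 to 18.9) and 13.5 (9.39 to 20), against 6.68 over all members. Several bins with fewer members had higher ones. Examples are chromosome 2 from 151284920 to 151889119 (3 members, 27.1, 12.3 to 74.8) and chromosome 11 from 60060607 to 60749651 (4 members, 22.6, 11.7 to 49.9).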
